A study of Mus musculus with 20 samples.

Results

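The genes described here encode the secreted and membrane-bound enzymes that cut and crosslink the extracellular matrix, together with their inhibitors. They were chosen by symbol alone: every protein-coding gene of the counted tables whose symbol begins with Mmp, Timp or Adamts, or with Adamtsl and a number, or is Lox or Loxl1 to Loxl4. The rule gave 56 genes of 54532 in the tables, made up of 23 Mmp, 4 Timp, 19 Adamts, 5 Adamtsl and 5 Lox genes. Their RNA was measured by RNA sequencing in 20 libraries of the plantaris, a fast calf muscle of the mouse. All mice were male C57BL/6J animals aged 5 months, and the muscles were taken 10 days after surgery. Mice underwent either sham surgery or mechanical overload (MOV), in which part of the gastrocnemius-soleus complex was removed on both sides so that the plantaris carried its load. During surgery 50 µL of lentivirus was injected into each plantaris, a control virus on the left and a virus carrying a miR-1 mimic on the right, both driven by the mouse CMV promoter with a TurboGFP reporter. Crossing surgery with virus gave 4 groups of 5 libraries each, named sham control and sham mimic after sham surgery, and MOV control and MOV mimic after overload. Every muscle, the controls included, was therefore injected with virus, and no uninjected muscle was among the groups. The muscles came from 10 mice, so the control and the mimic muscles of a surgery come from the same animals, but the labels do not say which 2 libraries share a mouse. The mature mimic itself, mmu-miR-1a-3p, is not among the values given here.

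Matrix metalloproteinases (Mmp) are zinc enzymes made as inactive precursors, and as a family they cut collagens, gelatins, elastin, laminins and the core proteins of proteoglycans. Tissue inhibitors of metalloproteinases (Timp) bind the active site of these enzymes and shut it. Adamts proteases carry thrombospondin repeats and act on more particular substrates, such as versican and aggrecan (Adamts1, Adamts4, Adamts5, Adamts20), the amino-terminal propeptide of fibrillar procollagens (Adamts2, Adamts3, Adamts14) or fibrillin microfibrils (Adamts10). Adamtsl proteins share the thrombospondin repeats but lack the protease domain. Lysyl oxidases (Lox, Loxl1 to Loxl4) oxidise lysines of collagen and elastin and so start the crosslinks that stiffen the matrix. In overloaded muscle this set is studied because a growing fibre must remodel the matrix around it, and most of these genes are made by interstitial cells rather than by the fibres.

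Of the 23 Mmp genes, 10 lie side by side on chromosome 9, from base 7272514 to base 7699585 of GRCm38.p6, a stretch of 427 kb. The RefSeq promoter windows of that build run from 250 bases before to 50 bases after each annotated start. In them, 8 of these 10 genes hold the letters TGANTCA, where N is any base. With C or G as N, these letters are the core of the binding motif of AP-1, the Fos and Jun transcription factor. The Mmp20 stretch has A there and so holds only the looser pattern TGANTCA, which is called the motif here. The motif reads the same on both strands. The 8 stretches are shown because they are what these neighbours share that the choice by symbol did not use, with the motif in capitals.
Mmp13 (chr9:7272468-7272496, + strand): ccccaaagtggTGACTCAtcactatcatg
Mmp12 (chr9:7347319-7347347, + strand): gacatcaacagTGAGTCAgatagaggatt
Mmp1b (chr9:7388102-7388130, - strand): gttacaaagccTGAGTCAtatagcctctg
Mmp3 (chr9:7445765-7445793, + strand): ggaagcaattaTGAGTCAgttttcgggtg
Mmp1a (chr9:7464057-7464085, + strand): gttgtcaaccaTGAGTCAcatagcctctg
Mmp10 (chr9:7502268-7502296, + strand): tagcacccatgTGAGTCAtgcttagtgac
Mmp20 (chr9:7628125-7628153, + strand): catttgagacaTGAATCAtcacttacagg
Mmp7 (chr9:7692016-7692044, + strand): aagtgtgcaaaTGAGTCAcctatttccac

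The Mmp12 stretch belongs to 1 of its annotated starts. Outside this group, 0 of the 27 other members with a window held the motif, and 8.97% of the 27025 genes with a window held it, so the motif was frequent in the chromosome 9 group and not in the members at large. The letters did not go with a common level. Mmp13 had 14039 counts over all libraries, Mmp12 had 3493 and Mmp3 had 2502, whereas Mmp10 had 84, Mmp1a had 2 and Mmp1b had 1. Mmp7, which makes matrilysin, and Mmp20, the enamel protease, had 0. The neighbours without the motif, Mmp8 and Mmp27, had 98 and 117 counts. A match of letters is a description and shows no bound factor.

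Levels are in CPM, which scales a gene's counts to the size of its library with TMM factors, and levels of different genes are compared only as CPM per kb of exon. In sham control muscle the gelatinase Mmp2 was the highest member at 101 ± 56.5 CPM per kb (SD, n = 5). Timp2, an inhibitor that also helps to bring pro-Mmp2 to the cell surface for activation, followed at 75.5 ± 30.2 CPM per kb. Mmp14, the membrane-anchored protease that activates Mmp2, stood at 62.1 ± 44.4 CPM per kb. The ranges of these 3 genes overlapped, so their order was not separated from the spread between libraries. Timp1 followed at 26.0 ± 17.04, Lox at 25.4 ± 13.6 and Loxl1 at 21.7 ± 9.94 CPM per kb, and these 3 also overlapped. Among the Adamts proteases the highest was Adamts1 at 8.08 ± 2.06 CPM per kb, and the highest Adamtsl gene was Adamtsl5 at 12.1 ± 1.73 CPM per kb. At the low end, 11 members did not pass the filter on low counts in any of the 5 comparisons. Of these, Mmp7, Mmp20 and Adamts13 had 0 counts in each of the 20 libraries, and Adamts18, with 128 counts, had the most.

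The libraries held 12036360 to 23056525 counts each, and the 56 genes took between 0.0475% and 0.254% of them. Muscle fibre markers (Acta1, Ckm, Myh4 and 6 more) summed to between 66604 and 178327 CPM in every library. A pair of libraries stood apart for the genes described here. Sham control 1 was the lowest of its group for 36 of the 45 members tested over all 20 libraries (80%), against 32.4% of the 16166 genes in that fit. Sham mimic 1 was the lowest of its group for 30 of 45 (66.7%), against 32.0% of all genes. In both libraries the summed muscle fibre markers were the highest of their group, at 178327 and 174445 CPM, and the summed leukocyte markers the lowest, at 399 and 436 CPM. The fibroblast and fibro-adipogenic markers were also lowest there, at 672 and 792 CPM. In MOV control, library 5 was the lowest for 22 of 45 members (48.9%), against 24.6% of all genes. Whether the makeup of these muscles or their handling set the low values was not tested.

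**Figure D1:**
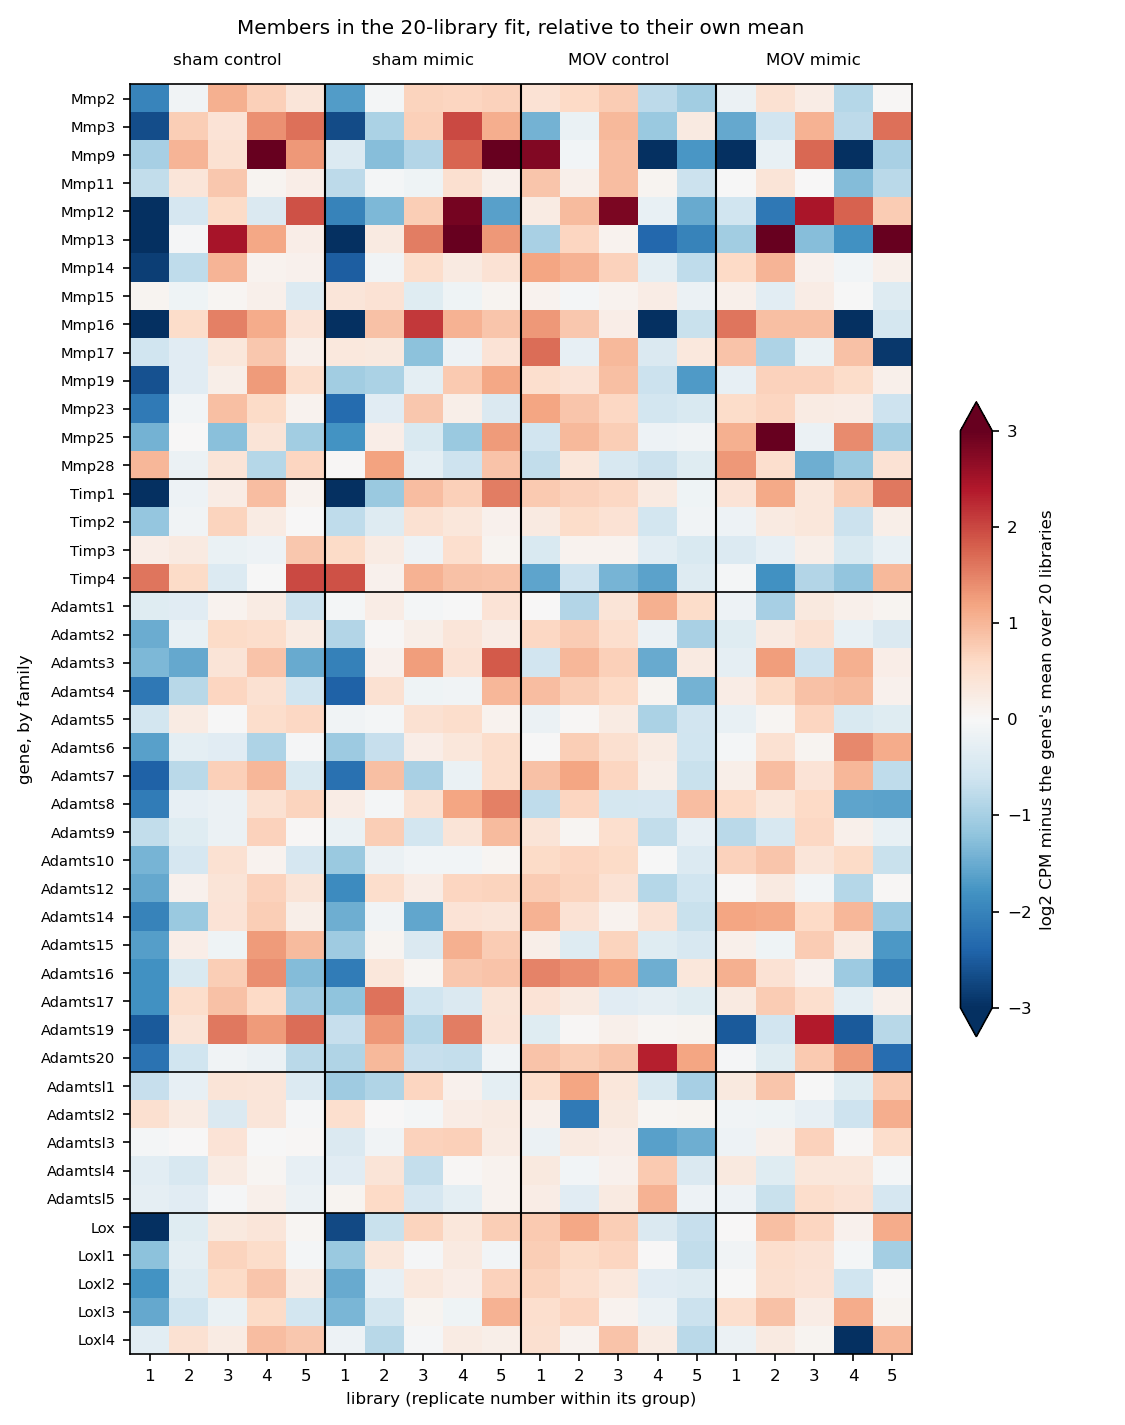
Level of the 45 members tested over all 20 libraries, as log2 CPM minus each gene's mean over the libraries (colour, blue below and red above, ends of the scale at 3 and -3), with genes in rows by family and libraries in columns by group. The columns of sham control 1 and sham mimic 1 are blue for most genes, Timp4 is blue through MOV control, and Adamts20 is red through MOV control.

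The first comparison asked how overload changed these genes in muscle that received the control virus. No member passed the threshold of adjusted p under 0.05 in edgeR's quasi-likelihood test with Benjamini-Hochberg adjustment, and over all genes 0.00668% passed, which is 1 of 14974. A pair of genes came close: Adamts20 was higher and Timp4 lower in MOV control than in sham control. DESeq2, a second count model, called both and no other member, on a background of 6.1% of genes called. The weighted linear model voom called Adamts20 alone, on a background of 1.96%. Of the 45 members tested, 3 had an unadjusted p under 0.05 in edgeR, against 18.2% of all genes. The median log2 fold change (log2FC) of the members was 0.18, with 29 positive and 16 negative, beside 0.04 over all genes. This positive balance rested on sham control 1: without that library the median was 0.02, with 23 positive and 22 negative. Without it 0 members were called.

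Adamts20 (chromosome 15, 94268314 to 94432074, GRCm38.p6), a protease that cuts versican and is best known from the belted coat mutant mouse, gave the clearest separation. In sham control its level was 2.18, 6.97, 9.79, 9.40 and 5.95 CPM in libraries 1 to 5. In MOV control it was 19.2, 17.8, 19.1, 54.2 and 24.2 CPM. Every MOV control library was above every sham control library, and Adamts20 was the only member of the 45 whose groups did not overlap, against 4.82% of all genes. The log2FC was 1.97 ± 0.39 (here and below, ± beside a log2FC is its SE), with an adjusted p of 0.0554 in edgeR. DESeq2 gave 1.98 with adjusted p = 0.00015. The highest library, MOV control 4, carried part of the size but not the direction: without it the log2FC was 1.54. Leaving out each of the 10 libraries in turn moved the adjusted p in edgeR between 0.0294 and 0.154. It passed the threshold without sham control 3, where 2.81% of genes were called, and without MOV control 5, where 2.08% were. In muscle with the mimic virus the groups overlapped. Adamts20 was 5.57, 20.9, 6.54, 6.36 and 9.88 CPM in sham mimic and 10.4, 8.23, 18.4, 25.9 and 2.08 CPM in MOV mimic, which gives log2FC 0.42 ± 0.54 and adjusted p = 0.768 in edgeR. This value had no stable sign or size: it was -0.0031 without MOV mimic 4 and 0.88 without sham mimic 2.

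Timp4 (chromosome 6, 115244444 to 115252205, GRCm38.p6), an inhibitor known for its narrow expression in heart, muscle, vessels and fat, was the member with the most negative log2FC in MOV control against sham control. Its level was 25.8, 12.6, 6.28, 8.27 and 33.3 CPM in sham control. In MOV control it was 2.72, 5.40, 3.12, 2.70 and 6.41 CPM. The groups touched at 1 point, where MOV control 5 was above sham control 3. The log2FC was -2.07 ± 0.45, with adjusted p = 0.0601 in edgeR, and the exact permutation test on log2 CPM, two-sided and with 0.00794 as the smallest p that 5 against 5 allows, gave p = 0.0159. DESeq2 gave -2.09 with adjusted p = 0.00043. Without sham control 3 or without MOV control 5 it passed the threshold in edgeR as well, and over the 10 libraries left out in turn the adjusted p lay between 0.0228 and 0.156. Muscle with the mimic virus gave the same sign. Timp4 was 31.8, 9.21, 17.4, 15.4 and 15.2 CPM in sham mimic and 8.04, 2.32, 4.48, 3.61 and 16.6 CPM in MOV mimic. There, 4 of 5 MOV mimic libraries were below every sham mimic library and MOV mimic 5 was not. The log2FC was -1.34 ± 0.49, with adjusted p = 0.307 in edgeR and an exact permutation p of 0.0317. The gene shares its locus with Syn2, and the strand setting of the counting is not given in the sources used here. Overlap of their exons was not examined, so whether reads of Syn2 enter the Timp4 counts was not tested. Timp1, Timp2 and Timp3 overlap Syn1, Cep295nl and Syn3 in the same way.

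Vessel markers also had lower sums in MOV muscle, and their values stand here because Timp4 is known from vessels. The 5 endothelial markers summed to 245 to 307 CPM in sham control and 141 to 275 CPM in MOV control, and 3 of 5 had an unadjusted p under 0.05, all lower, where 18.2% of all genes had such a p in either direction. The 5 pericyte and smooth muscle markers summed to 413 to 498 CPM in sham control and 216 to 439 CPM in MOV control, and 3 of 5 had an unadjusted p under 0.05, all lower. In mimic muscle the endothelial markers summed to 277 to 373 CPM in sham and 205 to 237 CPM in MOV, with 4 of 5 lower at that p, where 13.4% of all genes had it. The pericyte and smooth muscle markers there summed to 423 to 557 CPM in sham and 294 to 375 CPM in MOV, with 3 of 5 lower. No marker of either list was at 0 in any library, and none was called by edgeR. Timp4 is also known from muscle. The 9 muscle fibre markers summed to 117165 to 178327 CPM in sham control and 89349 to 161085 CPM in MOV control. In mimic muscle they summed to 111107 to 174445 CPM in sham and 66604 to 132017 CPM in MOV. Timp4 was the highest of its group in sham mimic 1, where most members were low. The part of any of these cells in the Timp4 values was not tested, and in bulk muscle fewer cells of a type and less RNA per cell cannot be told apart.

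The other inhibitors gave smaller differences. Timp3, which binds to the matrix itself and also inhibits Adamts proteases, was 35.1, 36.9, 26.7, 27.7 and 53.9 CPM in sham control and 22.3, 33.0, 32.9, 24.8 and 22.5 CPM in MOV control. Its log2FC was -0.39 ± 0.20 (adjusted p = 0.328 in edgeR), and -0.21 without sham control 5. In mimic muscle Timp3 was 46.1, 36.7, 27.6, 43.5 and 32.6 CPM in sham and 22.9, 25.9, 34.9, 22.4 and 26.3 CPM in MOV, with log2FC -0.49 ± 0.17, adjusted p = 0.305 in edgeR and exact permutation p = 0.0397. For Timp3, 3 of 5 MOV control libraries were below every sham control library, and 4 of 5 MOV mimic libraries were below every sham mimic library. Timp1, an inhibitor that many cells induce after injury, was 0.751, 20.4, 26.6, 42.9 and 24.6 CPM in sham control and 39.5, 36.5, 34.9, 27.3 and 20.7 CPM in MOV control. The 0.751 CPM of sham control 1 was far below the other values, and the log2FC of 0.49 ± 0.57 was not past the threshold (adjusted p = 0.684 in edgeR). Without sham control 1 it was 0.18, and without sham control 4 it was 0.84. In mimic muscle Timp1 was 0.659, 10.5, 43.1, 37.1 and 65.5 CPM in sham and 30.2, 49.9, 29.0, 37.7 and 68.6 CPM in MOV, with log2FC 0.47 ± 0.68. That value was 0.16 without sham mimic 1 and 0.92 without sham mimic 5. Timp2 had log2FC 0.15 ± 0.29 in control muscle and 0.02 ± 0.24 in mimic muscle, and both signs turned when single libraries were left out.

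**Figure D2:**
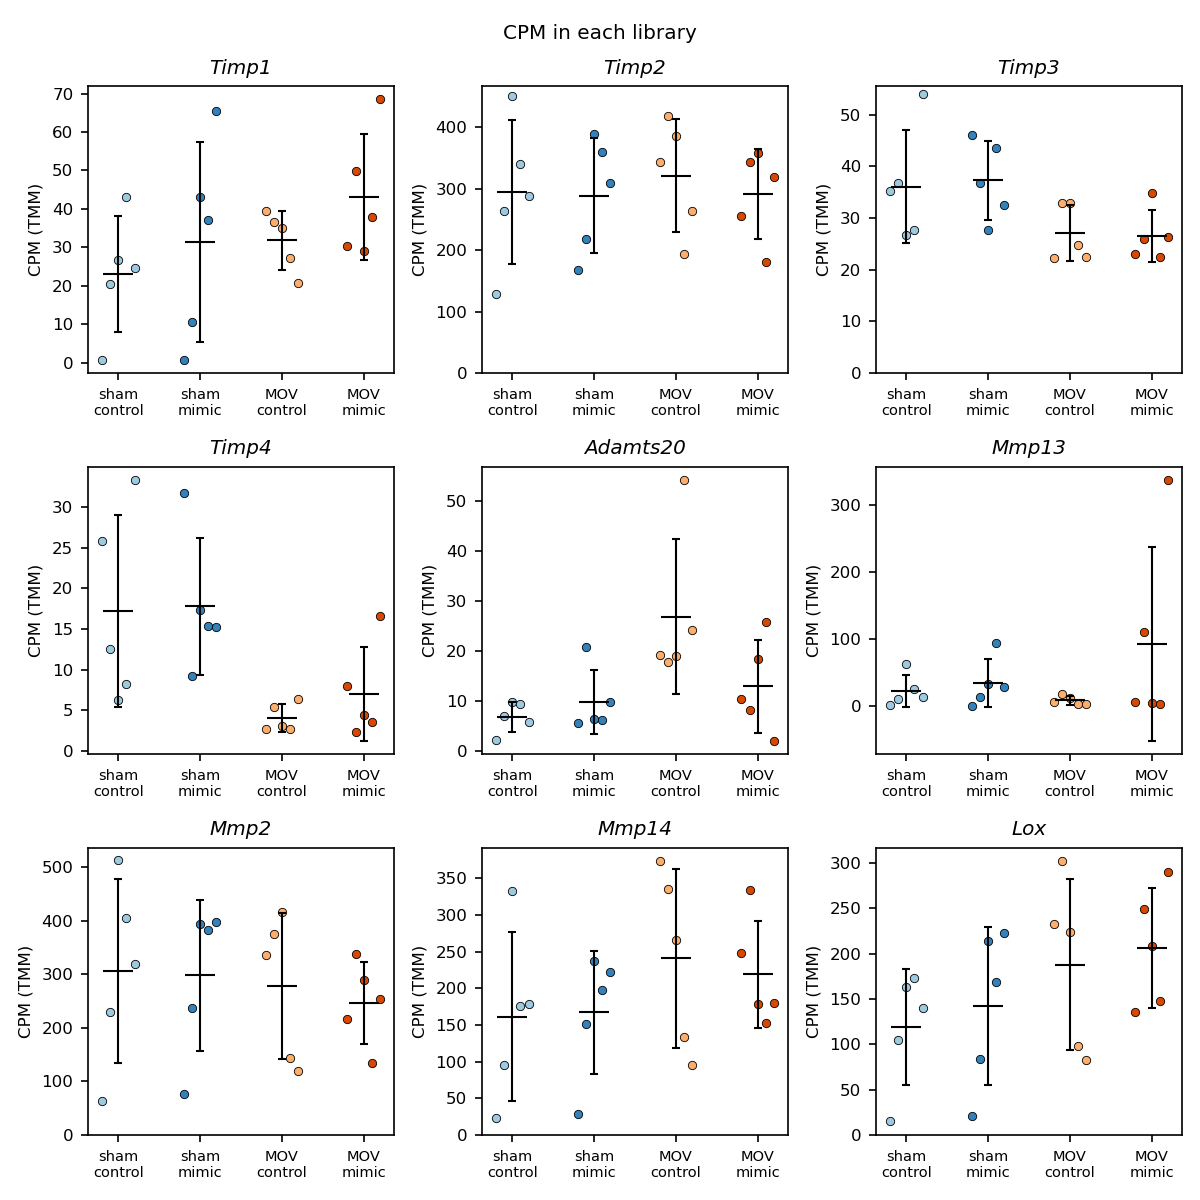
Level in CPM (vertical axis, own linear scale for each gene) of the 4 inhibitors, Adamts20, Mmp13, Mmp2, Mmp14 and Lox in the 5 libraries of each group, with points for libraries and bars for mean ± SD. Adamts20 lies at 17.8 CPM or more in each MOV control library, Timp4 at 6.41 CPM or less there, and Mmp13 reaches 110 and 338 CPM in 2 MOV mimic libraries.

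Among the proteases of the Mmp family, 14 of 23 were tested in MOV control against sham control, and 7 had a positive and 7 a negative log2FC, with median 0.02. This balance moved with single libraries, to a median of -0.29 with 5 positive and 9 negative without MOV control 3, and to 0.27 with 10 positive and 4 negative without sham control 4. Mmp2 was 62.8, 230, 513, 405 and 319 CPM in sham control and 336, 376, 416, 144 and 119 CPM in MOV control. Both groups spread widely, and the log2FC of -0.11 ± 0.48 (adjusted p = 0.929 in edgeR) turned positive under some alternatives. Its activator Mmp14 was 22.9, 96.0, 333, 176 and 178 CPM in sham control and 374, 335, 265, 134 and 95.8 CPM in MOV control, with log2FC 0.61 ± 0.55, which was 0.33 without sham control 1 and 1.06 without sham control 3. Mmp13, a collagenase that cuts fibrillar collagens, had the most negative value of the family, -1.44 ± 0.82 (adjusted p = 0.373 in edgeR, exact permutation p = 0.5). It was -0.58 without sham control 3, the highest library of its group. Mmp25, a membrane-anchored protease known from leukocytes, had the most positive, 0.91 ± 0.56. Mmp9, the gelatinase of neutrophils and macrophages, ranged from 0.45 to 11.1 CPM in sham control and from 0 to 7.56 CPM in MOV control. The macrophage elastase Mmp12 ranged from 0.0751 to 18.1 CPM and from 1.60 to 34.3 CPM in the same groups, so both overlapped over most of their range. In mimic muscle the family again gave 7 positive and 7 negative values, with median -0.04. This median was -0.13 without MOV mimic 1, with 6 positive and 8 negative, and 0.13 without sham mimic 4.

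The Adamts proteases had the most positive median of the 5 families in control muscle, 0.45, with 13 of 17 tested members positive. Without sham control 1 it was 0.21, with 9 of 17 positive. In mimic muscle 7 of 16 were positive and the median was -0.10. That median also turned with 1 library: without MOV mimic 5 it was 0.05, with 10 positive and 7 negative. Adamts6 was the other member of the family with an unadjusted p under 0.05 in control muscle. It was 1.80, 4.67, 4.57, 3.00 and 5.63 CPM in sham control and 5.74, 9.68, 8.16, 6.81 and 3.79 CPM in MOV control, with log2FC 0.82 ± 0.32 and adjusted p = 0.204 in edgeR. In mimic muscle Adamts6 had a log2FC of 0.77 ± 0.38. Adamts10, which acts on fibrillin microfibrils, had a log2FC of 0.59 ± 0.31 in control muscle. In mimic muscle it was 11.9, 22.7, 24.5, 24.6 and 27.0 CPM in sham and 42.1, 46.2, 33.2, 38.5 and 16.3 CPM in MOV, with log2FC 0.68 ± 0.27 and adjusted p = 0.323 in edgeR. There, 4 of 5 MOV mimic libraries were above every sham mimic library. Adamts14, a procollagen propeptidase, had a log2FC of 0.45 ± 0.45 in control muscle and 1.02 ± 0.47 in mimic muscle (adjusted p = 0.372 in edgeR). The other propeptidases had 0.21 ± 0.38 (Adamts2) and 0.54 ± 0.68 (Adamts3) in control muscle. Of the aggrecan and versican proteases, Adamts1 was 37.5, 37.9, 51.7, 56.7 and 30.5 CPM in sham control and 48.4, 26.3, 63.1, 100 and 70.6 CPM in MOV control, with log2FC 0.53 ± 0.29, which was 0.28 without MOV control 4. Adamts4 had 0.60 ± 0.50, and Adamts5 had -0.42 ± 0.25. Single libraries moved several of these values: Adamts14 in control muscle was 0.21 without MOV control 1, Adamts3 was 0.22 without MOV control 2, and without sham control 1 Adamts4 was 0.36 and Adamts2 was -0.0054.

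Among Adamtsl genes, 3 of 5 had a positive log2FC in control muscle, with median 0.33, which was 0.06 without MOV control 2. Adamtsl5, the most abundant of them, was 51.4, 48.8, 60.8, 69.2 and 54.9 CPM in sham control and 72.6, 49.2, 74.8, 129 and 55.6 CPM in MOV control. Its log2FC was 0.43 ± 0.23 in control muscle (adjusted p = 0.336 in edgeR) and -0.03 ± 0.26 in mimic muscle. Without MOV control 4 the value in control muscle was 0.15. Of the crosslinkers, 4 of 5 were positive in control muscle, with median 0.29, and 5 of 5 in mimic muscle, with median 0.17. The first median was 0.10 without sham control 1. The second was 0.11 without MOV mimic 2, with 3 of 5 positive, and 0.44 without MOV mimic 4. Lox itself was 15.6, 104, 163, 173 and 140 CPM in sham control and 232, 302, 223, 98.6 and 83.1 CPM in MOV control. In mimic muscle Lox was 20.5, 84.2, 214, 169 and 223 CPM in sham and 136, 249, 209, 147 and 290 CPM in MOV. The groups overlapped in both, with log2FC 0.69 ± 0.51 and 0.55 ± 0.47, and adjusted p = 0.502 and 0.633 in edgeR. Without sham control 1 the first was 0.40, and without sham mimic 1 the second was 0.27. Summed over the 5 crosslinkers, the level was 269 ± 134 CPM in sham control and 360 ± 148 CPM in MOV control (SD, n = 5).

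In MOV mimic against sham mimic as a whole, edgeR called 0 members on a background of 0.0% of 14918 genes, and DESeq2 called 0 members on a background of 1.49%. In edgeR, 4 of the 44 members tested had an unadjusted p under 0.05 (Timp3, Timp4, Adamts10 and Adamts14), against 13.4% of all genes. The median log2FC of the members was 0.03, with 24 positive and 20 negative, beside 0.02 over all genes. The balance had no stable sign: without sham mimic 1 the median was -0.09, with 19 positive and 26 negative, and without sham mimic 4 it was 0.11. No member had groups without overlap, against 2.74% of genes. The leukocyte markers summed to 436 to 1486 CPM in sham mimic and 779 to 2232 CPM in MOV mimic, with 6 of 13 tested at an unadjusted p under 0.05, all higher in MOV mimic, and their part in these values was not tested. The comparison in control muscle and that in mimic muscle share no library, but their libraries come from the same mice.

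**Figure D3:**
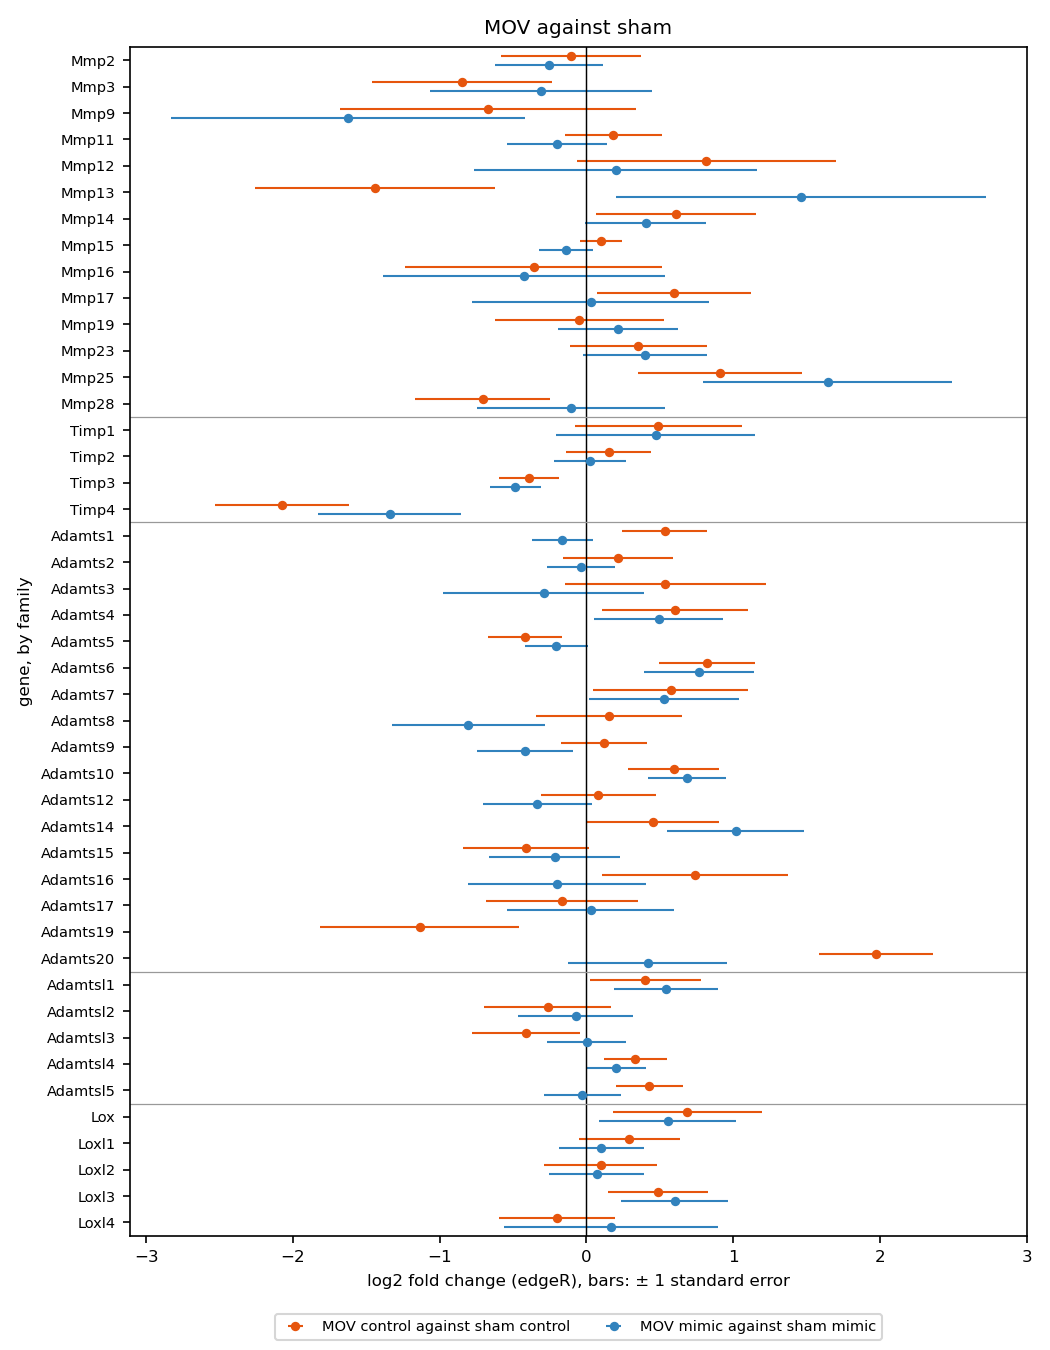
Log2 fold change from edgeR with 1 standard error to each side (horizontal axis) for MOV control against sham control (orange) and MOV mimic against sham mimic (blue), with the tested genes by family on the vertical axis. Adamts20 at 1.97 and Timp4 at -2.07 are the points farthest from 0 in control muscle, and Adamts20 lies at 0.42 in mimic muscle.

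The second question was whether the mimic altered these genes in overloaded muscle. In MOV mimic against MOV control edgeR called 0 members on a background of 0.0% of 15220 genes, and DESeq2 called 0 members on a background of 0.0197%. The members' median log2FC was -0.02, with 21 positive and 23 negative. It was -0.13 without MOV control 5, with 16 positive and 28 negative, and 0.09 without MOV control 1, with 25 positive and 19 negative. Only Mmp13 had an unadjusted p under 0.05 in edgeR, 1 of 44 members, against 4.21% of genes. No member had groups without overlap, against 0.736% of genes.

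Mmp13 varied widely between libraries of 1 group. In MOV control it was 5.69, 17.7, 12.2, 2.12 and 2.70 CPM. In MOV mimic it was 5.37, 110, 4.55, 3.10 and 338 CPM, which corresponds to 5200 counts in MOV mimic 5. A pair of MOV mimic libraries, 2 and 5, lay far above MOV control, and the other 3 lay within the range of MOV control. The log2FC was 3.48 ± 1.18, with p = 0.011 and adjusted p = 0.999 in edgeR, and the exact permutation test gave p = 0.317. Without MOV mimic 5 the log2FC was 1.91, and without MOV mimic 2 it was 3.41. By voom it was 0.84 with all libraries of both groups. Sham muscle also held high libraries: Mmp13 was 0.601, 10.96, 62.8, 25.3 and 13.0 CPM in sham control and 0.146, 13.6, 33.0, 93.8 and 27.7 CPM in sham mimic. Its lowest values, 0.601 and 0.146 CPM, were those of the libraries numbered 1.

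Markers of other cells differed between the same groups. The 14 leukocyte markers summed to 440 to 1383 CPM in MOV control and 779 to 2232 CPM in MOV mimic. Of the 13 tested, 5 had an unadjusted p under 0.05, all higher in MOV mimic, where 4.21% of all genes had such a p, and 0 were called. Within MOV mimic, library 2 had the highest leukocyte sum, 2232 CPM, and library 5 the lowest, 779 CPM, while both were high in Mmp13. The chondrocyte and bone markers, tissues in which Mmp13 is abundant, summed to 54.2 CPM in MOV mimic 5 and to 20.4 to 27.2 CPM in the other 4 libraries of the group. In MOV control they summed to 7.65 to 41.9 CPM, and Bglap of this list was at 0 in both groups. The neutrophil markers summed to 2.84 to 16.8 CPM in MOV control and 6.50 to 15.4 CPM in MOV mimic, with Ly6g at 0 in both groups. The part of these cells in the Mmp13 values was not tested.

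For Adamts20, whose library values stand above, MOV mimic against MOV control gave log2FC -1.04 ± 0.50, p = 0.0596 and adjusted p = 0.999 in edgeR, and exact permutation p = 0.0952. The value was -0.63 without MOV control 4 and -1.45 without MOV mimic 4. The groups overlapped, since MOV mimic 3 and 4 lay within the MOV control range. Both tests take all muscles as independent, although control and mimic muscles of a surgery come from the same mice. Fits with the replicate number as a block stand in the closing section. Mmp25 was 0.494, 1.69, 1.40, 0.707 and 0.729 CPM in MOV control and 1.79, 7.33, 0.695, 2.31 and 0.325 CPM in MOV mimic. Its log2FC of 1.30 ± 0.75 (adjusted p = 0.999 in edgeR) was 0.34 without MOV mimic 2, and the gene overlaps Bicdl2. Timp4 had a log2FC of 0.79 ± 0.49, which was 0.19 without MOV mimic 5, and Lox had 0.12 ± 0.34, which was -0.07 without MOV control 5.

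The same question was asked of sham muscle. In sham mimic against sham control edgeR and DESeq2 both called 0 members on a background of 0.0% of 14746 genes. No member had an unadjusted p under 0.05 in edgeR, against 1.72% of genes, and none had groups without overlap, against 0.366%. The median log2FC was 0.05, with 26 positive and 18 negative, and its sign turned with the libraries used. Without sham control 1 it was -0.10, with 21 positive and 24 negative, whereas without sham control 4 it was 0.19 and without sham mimic 1 it was 0.16, with 36 positive and 9 negative. The smallest p belonged to Loxl4, the least abundant crosslinker, which was 0.976, 1.74, 1.49, 2.46 and 2.27 CPM in sham control and 1.10, 0.641, 1.20, 1.49 and 1.40 CPM in sham mimic. Its log2FC was -0.61 ± 0.34 (p = 0.0949 in edgeR, exact permutation p = 0.103). Adamts8 followed with 0.526, 2.18, 2.29, 3.65 and 4.21 CPM in sham control and 3.08, 2.51, 3.64, 6.05 and 7.65 CPM in sham mimic, a log2FC of 0.83 ± 0.46 (exact permutation p = 0.151). Adamts1 had a log2FC of 0.27 ± 0.17, which was 0.17 without sham control 5. Without both libraries numbered 1, edgeR again called 0 members and the median log2FC was 0.06, with 24 positive and 21 negative.

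**Figure D4:**
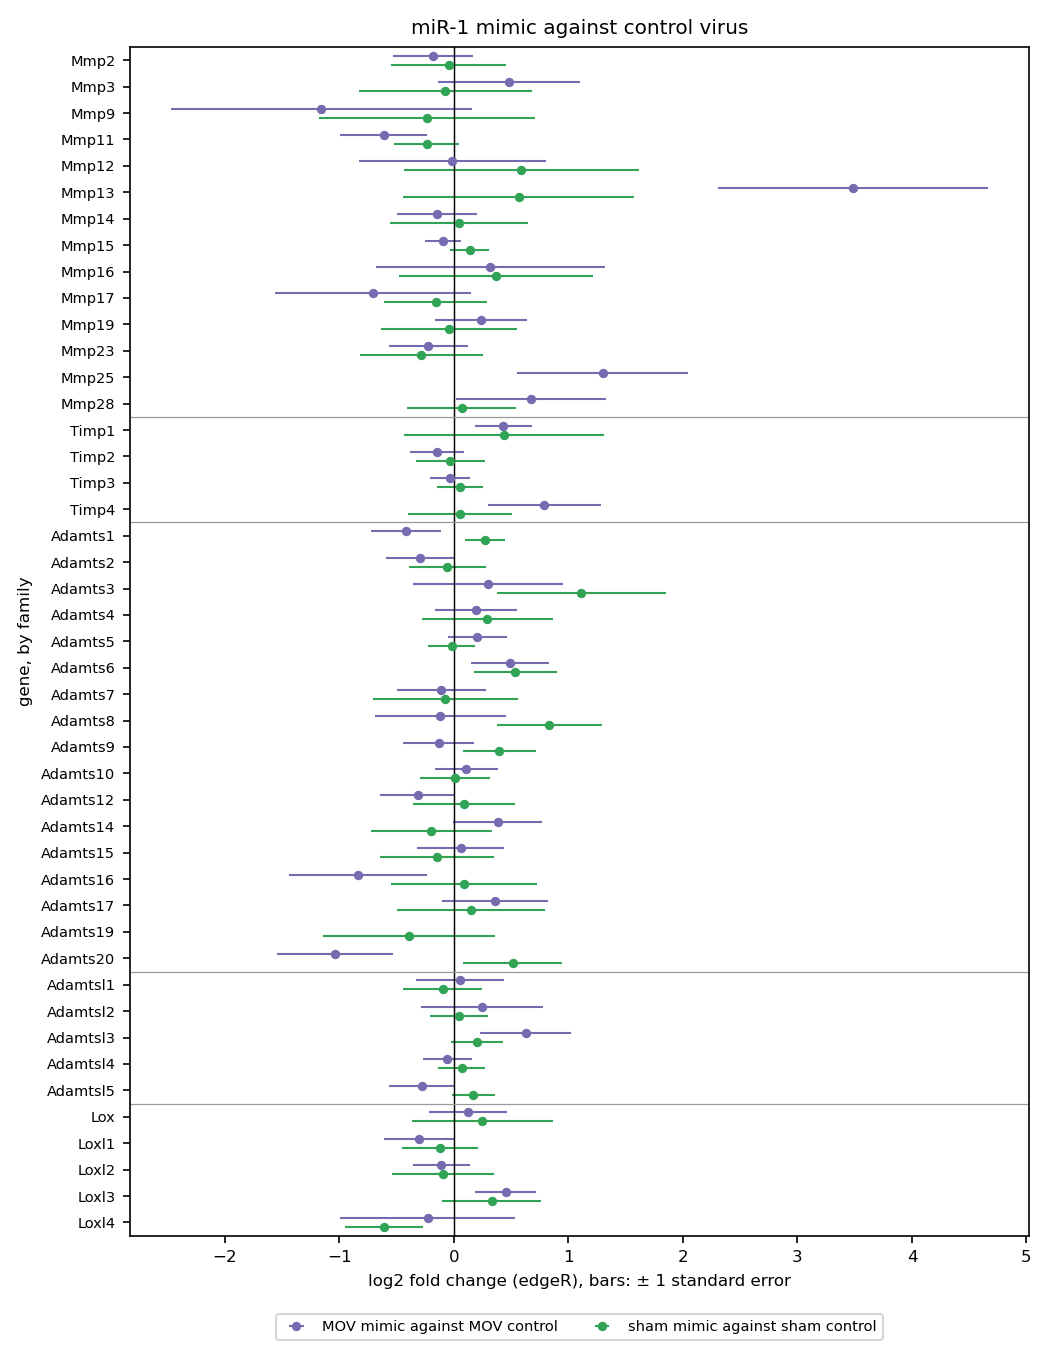
Log2 fold change from edgeR with 1 standard error to each side (horizontal axis) for MOV mimic against MOV control (purple) and sham mimic against sham control (green), with the tested genes by family on the vertical axis. Mmp13 at 3.48 in overloaded muscle has the longest distance from 0, with a standard error of 1.18, and most other points lie within 1 unit of 0.

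Whether the effect of the mimic differed between the surgeries was tested by an interaction term in a fit of all 20 libraries. No member was called by edgeR or DESeq2, where 0.0% and 0.00619% of 16166 genes were called. Of 45 members, 1 had an unadjusted p under 0.05, against 2.64% of genes. This was Adamts20, with an interaction of -1.55 ± 0.72 on the log2 scale (adjusted p near 1 in edgeR), which means a level in MOV mimic below what the other 3 groups would give by addition. Leaving out single libraries moved it between -1.97 and -1.08. Adamts1 followed with -0.70 ± 0.38, which was -0.45 without MOV control 4. Mmp13 had 2.89 ± 1.64, which was 1.33 without MOV mimic 5 and 0.16 by voom. Without both sham libraries numbered 1 the Adamts20 interaction was -1.47 and 0 members were called.

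The substrates and partners of these enzymes were read from lists of other matrix genes, and edgeR called 0 genes of each list in all 5 comparisons. In MOV control against sham control, 1 of 11 tested genes for fibrillar collagens and their processing had an unadjusted p under 0.05, where 18.2% of all genes did. It was Pcolce2, which enhances removal of the carboxy-terminal propeptide, with log2FC -2.19 ± 0.58. Among genes for collagen hydroxylation and folding, 1 of 13 did, P4ha2 with -0.40 ± 0.15. Among hyalectans and other Adamts substrates, 1 of 8 did, the small proteoglycan decorin (Dcn) with -0.84 ± 0.30. Among elastic fibre and microfibril genes, 2 of 15 did, both latent TGF-beta binding proteins and both higher: Ltbp1 with 0.56 ± 0.19 and Ltbp3 with 0.66 ± 0.19. Among the plasmin system and other matrix proteases and inhibitors, 6 of 26 did, all lower, among them Serpine2, a protease inhibitor, with -0.59 ± 0.19 and Pcsk6, a proprotein convertase, with -1.11 ± 0.34. The related genes Papln and Thsd4 gave 0 of 2. In MOV mimic against sham mimic, 0 genes of the first 4 lists had an unadjusted p under 0.05 and 2 of 26 of the protease list did, Pcsk6 with -1.17 ± 0.51 and Reck, a membrane-anchored inhibitor of Mmp enzymes, with -0.64 ± 0.27, where 13.4% of all genes did. In MOV mimic against MOV control and in sham mimic against sham control, 0 genes of the 6 lists did. The fibrillar collagen list summed to 932 CPM in its lowest sham control library and 11846 CPM in its highest, a range wider than the difference between its group means of 7351 CPM in sham control and 9370 CPM in MOV control.

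The 8 fibroblast and fibro-adipogenic markers summed to 672 to 1634 CPM in sham control, 792 to 1524 CPM in sham mimic, 579 to 1287 CPM in MOV control and 669 to 1342 CPM in MOV mimic. Of these 8, decorin was lower in MOV control than in sham control at an unadjusted p under 0.05, and Ly6a was higher in MOV mimic than in MOV control (log2FC 0.81 ± 0.32). In the other 3 comparisons 0 of 8 had such a p, and 0 were called. The 6 tenocyte markers summed to 279 to 961, 359 to 1145, 343 to 1101 and 664 to 1174 CPM in the same order, and 0 of 6 had an unadjusted p under 0.05 in any comparison. Among the 9 muscle fibre markers, 2 had an unadjusted p under 0.05 in MOV control against sham control, against 18.2% of all genes. Myh4, the fast myosin of type IIB fibres, had a log2FC of -1.59 ± 0.30 (adjusted p = 0.0554 in edgeR), and Myh1, the myosin of type IIX fibres, 0.84 ± 0.33. In MOV mimic against sham mimic 2 of 9 had such a p, against 13.4% of all genes, both lower: the creatine kinase Ckm with -0.55 ± 0.24 and the fast troponin Tnnt3 with -0.46 ± 0.21.

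The members that the filter left out were near the limit of counting. Mmp8, the neutrophil collagenase, had at most 18 counts in a library and was at 0 in 6 of 20 libraries. Mmp10, a stromelysin, had at most 29 counts and was at 0 in 12 libraries, including all 5 of MOV control. Mmp21 had at most 10 counts, Mmp24 at most 7, Mmp27 at most 18 and Adamts18 at most 27. For the 3 genes at 0 counts throughout, a count of 0 allows up to 3 counts per library, and this covers counting error only.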

How the data were processed

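Plantaris RNA was sequenced from 20 libraries, 5 per group, prepared with the NEBNext Ultra II kit. Per the labels and the study's methods, the authors trimmed reads with Trim Galore 0.6.10 (cutadapt 4.4), aligned them with HISAT2 2.0.5 to GRCm38 and deposited whole-number counts per gene from featureCounts 1.5.0-p3. Strand setting, annotation release and treatment of reads with several positions are not given in the sources used here. Each library held 12036360 to 23056525 counts, so a gene at 3 counts or fewer cannot be told from 0, and these limits cover counting error only.

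Genes were named from the identifier table (32640 of 54532 matched), and exon lengths, used only for CPM per kb, come from an older annotation. Coordinates and promoter windows are those of RefSeq for GRCm38.p6. The main test was edgeR 4.0.16 (quasi-likelihood, TMM scaling, filterByExpr, Benjamini-Hochberg over all genes tested, adjusted p under 0.05) on the 10 libraries of each comparison, or all 20 for the interaction. Alternatives were DESeq2 1.42.0, voom in limma 3.58.1, other scalings and filters, a replicate block, all libraries in 1 fit and each library left out. The tests were checked on simulated counts. Single genes were also tested by exact two-sided permutation of log2 CPM (prior count 2) over 252 splits. Nothing in the labels says which equal-numbered libraries share a mouse, so the main test has no block, and p-values measure the spread between these muscles. In mimic against control and in the interaction, muscles of the same mouse are therefore treated as independent.

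By the rule for genes described singly, these were the members called by edgeR in MOV against sham, the 4 Timp genes, the uncalled member of each other family with the highest mean CPM, and the 3 members with the smallest p for mimic against control and for the interaction. Members that failed the filter are given with their counts. Others (Mmp9, Mmp12, Mmp14, and Adamts genes beyond Adamts1, Adamts8 and Adamts20) were chosen for description after their values were seen. Since edgeR called no member in MOV against sham, the rule did not name Adamts20 there. Its values in MOV against sham were also chosen for description with results known. The members and the lists of markers and partner genes were chosen with earlier results of these data known.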

Additional observations from a re-analysis of the deposited data

Results flagged for a closer look

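Of 180 groups of 5 libraries (45 members in 4 groups), 18 held a library farther from the others than Dixon's 95% limit allows (10%, where chance gives about 1 in 20 groups), and 12 of the 18 were low values in the sham libraries numbered 1. The 45 members share the same libraries, so these groups are not independent and the share is no test against chance. In sham control 1 the low values, in CPM, were 0.676 for Mmp3, 0 for Mmp16, 0.751 for Timp1, 4.05 for Adamts12 and 15.6 for Lox. In sham mimic 1 they were 29.2 for Mmp14, 0 for Mmp16, 23.3 for Adamts2, 11.9 for Adamts10, 3.15 for Adamts12, 0.659 for Adamts16 and 31.9 for Loxl1. Of the 6 elsewhere, a pair were high values: Adamts20 at 54.2 CPM in MOV control 4 and Adamtsl3 at 8.08 CPM in sham control 3. The low ones were Adamts14 at 3.90 CPM in MOV mimic 5, Adamts19 at 0.396 CPM in MOV control 1 (8 counts, as in MOV control 5), Adamtsl2 at 0.432 CPM in MOV control 2 and Loxl4 at 0 CPM in MOV mimic 4. The interaction of surgery and virus, tested for each of 45 members, called 0.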

How the results depend on the processing

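In MOV control against sham control edgeR called 0 members, whereas 2 were called with DESeq2, with no filter, with at least 10 counts in total and with DESeq2 with a replicate block, and 1 with voom. The 2 were Adamts20 and Timp4 each time, and the 1 was Adamts20, on backgrounds of 6.1%, 1.37%, 0.734%, 4.82% and 1.96% of genes. Leaving out single libraries gave 0 to 2 calls, and these 2 genes were the ones called without sham control 3 (2.81% of genes) and without MOV control 5 (2.08%). The range was 0 to 0 in the other 4 comparisons. The cause of the difference between the tools was not tested. With a replicate block, DESeq2 called 1 member in MOV mimic against sham mimic (Timp4, log2FC -1.59, adjusted p = 0.0052, with 0.764% of genes called) and 1 in MOV mimic against MOV control (Adamts20, -1.25, adjusted p = 0.0332, with 0.834% called). Sham and MOV muscles come from different mice, so in both comparisons of MOV against sham this block joins libraries of different animals. edgeR with the block called 0 members in all 5 comparisons, and the block gave Mmp13 a log2FC of 1.502 in MOV mimic against MOV control. Equal numbers were not treated as pairs, since the rule asked for a correlation over 0.1 in every same-numbered pair. The correlation of same-numbered libraries' deviations from their group means ran from 0.0113 to 0.664 in sham (mean 0.231) and from 0.0353 to 0.321 in MOV (mean 0.164). Differently numbered libraries gave means of -0.0524 in sham and -0.0399 in MOV. Of the libraries, 5 of 10 in sham and 8 of 10 in MOV correlated best with their own number. Whether equal numbers mark a mouse thus stays unsettled. Some values not past the threshold turned sign. For MOV control against sham control these were Mmp2, with 0.0710 by voom and 0.0339 with library totals (-0.37 to 0.16 over libraries left out), and Timp2 (-0.0367 to 0.36). For MOV mimic against sham mimic they were Timp2, with -0.0605 by voom, -0.0151 with no filter and -0.0046 with at least 10 counts (-0.12 to 0.15), Adamts1, with 0.0164 by library totals, Adamtsl5, with 0.0477 by voom and 0.18 by library totals (-0.20 to 0.14), and Adamts20 (-0.0031 to 0.88). Library totals move the median log2FC of all genes from 0.04 to 0.20 in MOV control against sham control and from 0.02 to 0.22 in MOV mimic against sham mimic. Mmp13 in MOV mimic against MOV control was 0.84 by voom, which gives outlying libraries less weight. Of the log2FC values recomputed for the genes described singly, 508 kept their sign and their side of the threshold, 23 turned sign and 15 passed the threshold. Depth limits the members with few counts, such as Loxl4, whereas Mmp2 had at least 837 counts in each library.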
